A study of Drosophila melanogaster with 4 samples.

Results

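Closely spaced clusters are H3K27ac-enriched regions that lie inside the long autosomal arms of Drosophila melanogaster and have a neighbouring enriched region less than 500 bp away. They were taken from the list of enriched regions, called clusters here, that the authors made from their replicate set (the combined list). A cluster counted where it lay on 2L, 2R, 3L or 3R with its midpoint more than 2 Mb from both arm ends, was narrower than 10000 bp and had a gap under 500 bp on at least 1 side. In all, 1053 of the 7474 clusters of the combined list (14.1%) met this rule. Position, width and gap in the combined list chose them, so the clusters were selected on measured values, which are given as a description with no test.

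Embryos of the wild-type strain Oregon-R-modENCODE were used at 14 to 16 h, a whole-embryo mixture of differentiating tissues, and formaldehyde at 1.8% fixed the chromatin of every library. For H3K27ac there were 2 libraries of immunoprecipitated, sequenced chromatin (ChIP-seq), replicates 1 and 2, each with its own input library of sheared genomic DNA from the same stage. Each ChIP replicate has its own list of clusters, and each cluster carries a score deposited by the authors, whose scale is not stated. Read depth at a cluster or gap is unknown, as the lists give no counts. The labels do not tell whether separate collections of embryos were used, and the spread between replicates may be technical.

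Acetylation of lysine 27 on histone H3 is laid down by the acetyltransferase CBP, called Nejire in the fly, and marks the nucleosomes beside active promoters and enhancers. At such elements the DNA bound by transcription factors or by the transcription machinery is often free of nucleosomes. A histone mark can then show a dip between flanking acetylated nucleosomes. A peak caller can therefore break a stretch of acetylated chromatin into neighbouring clusters, and a small dip in read depth can break it as well.

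Close spacing was common in the combined list and had no natural limit at 500 bp. The 1053 clusters made up 23.7% of the clusters under 10000 bp inside the arms, and the other 3381 such clusters had a nearest gap of 500 bp or more. Among neighbouring clusters inside the arms, 166 gaps were under 100 bp, 128 were from 100 to under 200 bp, and 98 were from 400 to under 500 bp. Beyond the limit the counts went on without a break, with 96 gaps from 500 to under 600 bp. The smallest gap was 2 bp in the combined list and 1 bp in each replicate list, so none of the lists shows a minimum distance below which clusters were merged. All 7474 clusters of the combined list start and end at even positions, so its gaps come in steps of 2 bp.

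**Figure D1:**
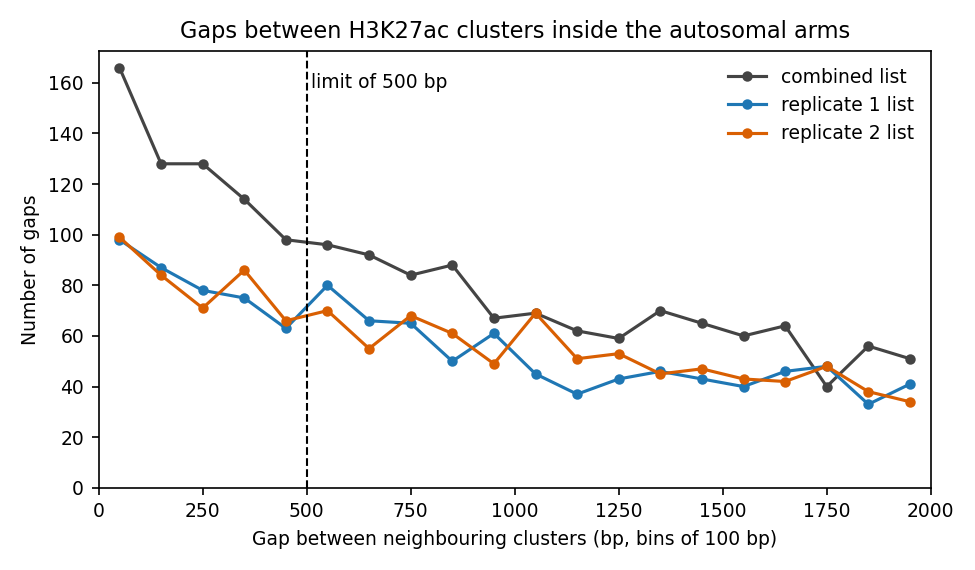
Number of gaps between neighbouring clusters inside the 4 autosomal arms, in bins of 100 bp of gap width, for the combined list and each replicate list. The dashed line marks the limit of 500 bp, and the counts of the combined list pass from 98 below it to 96 above it.

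Each replicate list, taken alone, held fewer such clusters. The same rule found 669 in replicate 1 and 695 in replicate 2, a mean of 682 ± 18.4 (SD, n = 2). They made up 18.0% and 18.2% of the clusters under 10000 bp inside the arms of those lists. Inside the arms, 13.0% of all gaps of the combined list were under 500 bp, against 10.0% in replicate 1 and 9.76% in replicate 2. The combined list goes down to a width of 1000 bp and the replicate lists to 1300 bp, and 121 of the closely spaced clusters (11.5%) were narrower than 1300 bp, against 9.53% of the whole list and 9.70% of the other narrow clusters.

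The closely spaced clusters were slightly wider than the other narrow clusters of these arms and had similar scores. Their median width was 2670 bp, with quartiles of 1800 and 4522 bp, against 2616 bp (1790 and 4256 bp) for the other narrow clusters. With the rule applied to each replicate list, the medians were 2847 against 2659 bp (replicate 1) and 2897 against 2706 bp (replicate 2), a larger difference in the same direction. The median score of the closely spaced clusters of the combined list was 0.450, with quartiles of 0.334 and 0.698, against 0.454 (0.336 and 0.732). Wide clusters inside the arms, of 10000 bp or more, had a median score of 1.19. Width and score rose together across the closely spaced clusters, with a Spearman rho of 0.805 over 1053 clusters, and across the other narrow clusters, with 0.799 over 3381. The highest score was 1.87 among the closely spaced clusters and 3.33 among the others.

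The clusters just inside and just outside the limits of the rule had values in the same range. The nearest inside the gap limit had gaps of 498, 496 and 496 bp and scores of 0.406, 0.716 and 0.635, with ties taken in order along the arms. The nearest outside it had gaps of 500, 504 and 504 bp and scores of 1.24, 0.347 and 0.625. Among clusters with a close neighbour, the nearest inside the width limit measured 9942, 9882 and 9862 bp with scores of 1.22, 1.02 and 0.738. The nearest outside measured 10042, 10104 and 10164 bp with scores of 1.09, 0.942 and 0.596. Of these 12 clusters, 11 overlapped clusters of both replicates.

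Close neighbours were about as alike in score as more distant neighbours. Among 511 pairs of narrow clusters less than 500 bp apart, the scores differed by a median of 0.209. The median difference was 0.198 for 342 pairs from 500 to under 1000 bp apart and 0.231 for 1142 pairs at least 10000 bp apart. The rank correlation of the paired scores was near 0 at each of these distances, with a Spearman rho of 0.071, 0.097 and -0.013, given as a description across pairs that share lists and arms. The wider cluster of a close pair was a median of 1.78 times as wide as the narrower, against 1.65 times and 1.73 times at the same larger distances. At distances between these, it was 1.77 times from 1000 to under 2000 bp and 1.78 times from 2000 to under 5000 bp. From 5000 to under 10000 bp it was 1.71 times.

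The clusters formed 535 runs, a run being a chain of successive clusters with each gap under 500 bp that holds at least 1 closely spaced cluster. Most runs were pairs. In all, 455 runs (85.0%) held 2 clusters, 70 held 3, 9 held 4 and 1 held 5. Only 80 closely spaced clusters had a close neighbour on both sides, and 973 had it on a single side. The runs span a median of 7.99 kb, with quartiles of 5.13 and 12.6 kb and a range from 2.41 to 71.0 kb. Gaps took up a median of 2.84% of a run's span.

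Wide clusters took part in 102 runs (19.1%), where 108 of them lay within 500 bp of a narrow cluster or of another wide one. The other 433 runs held narrow clusters only and spanned a median of 6.61 kb and at most 23.7 kb. Joined end to end, 102 of these 433 (23.6%) would reach 10000 bp, the width at which a cluster is counted here as wide, and 2 would reach 20000 bp. Closely spaced clusters directly beside a wide cluster numbered 110. Their median width was 3090 bp and their median score 0.474, against 2630 bp and 0.446 for the 943 that had narrow neighbours only.

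In the runs of 3 clusters, the middle cluster had no fixed rank. It was the widest in 21 of 70 runs and the narrowest in 23. It had the highest score in 21 and the lowest in 26. Middle clusters had a median score of 0.518, and the outer clusters of the same runs 0.517.

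The replicate lists overlapped the closely spaced clusters about as often as other clusters. Of the 1053, replicate 1 had a cluster overlapping 724 (68.8%) by at least 1 bp and replicate 2 had one overlapping 754 (71.6%), a mean of 70.2 ± 2.01% (SD, n = 2). The shares over the whole combined list were 73.0% and 75.4%. For the other narrow clusters inside the arms they were 69.9% and 75.1%, and the differences, closely spaced minus other, were -1.19 and -3.46 percentage points, a mean of -2.33 ± 1.60 points (SD, n = 2). With clusters below the median score of their list left out, the difference turned to 2.20 points. No test was run on these 2 values. The combined list is itself a product of these replicates, and overlap with their lists is not independent of the rule.

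The clusters found in both replicates were the wider and higher-scoring ones, as among the other narrow clusters. Clusters of both replicates overlapped 644 closely spaced clusters (61.2%, against 65.0% of the whole combined list and 62.4% of the other narrow clusters). For these 644 the medians were 3939 bp in width and 0.622 in score. Replicate 1 alone overlapped 80, with medians of 1856 bp and 0.325, and replicate 2 alone overlapped 110, with medians of 1931 bp and 0.331. The remaining 219 (20.8%, against 16.6% of the whole list and 17.4% of the other narrow clusters) met no cluster of either replicate. They had medians of 1316 bp and 0.319. For the other narrow clusters these medians were 3620 bp and 0.640 in both replicates and 1322 bp and 0.324 in neither. For the closely spaced clusters, the interquartile ranges of width were 2748.5 to 5740.5 bp in both and 1117 to 1671 bp in neither, which do not overlap. The same held for score, with 0.471 to 0.862 against 0.286 to 0.358. These ranges were not computed for other clusters and are not read as a trait of the closely spaced ones. A wider cluster more easily meets a replicate cluster by 1 bp, and neither replicate list has a cluster under 1300 bp. Being found in a replicate is thus not independent of width, nor of score, which rose with width.

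**Figure D2:**
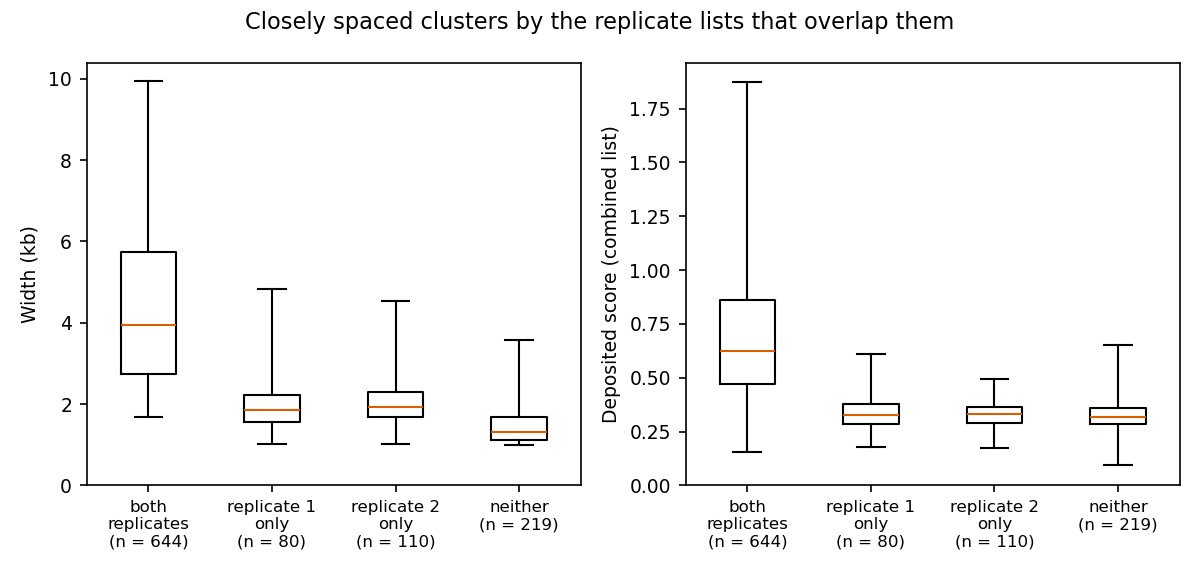
Width in kb (left) and deposited score (right) of the 1053 closely spaced clusters, by the replicate lists that overlap them. Boxes show the median and quartiles and whiskers the full range; the median width falls from 3939 bp for clusters in both replicates to 1316 bp for those in neither.

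Closely spaced clusters paired with a single cluster in each replicate, which in turn met no other combined cluster, numbered 494. Their replicate scores were ordered alike, with a Spearman rho of 0.861, against 0.862 for 1895 other narrow clusters, both as a description across clusters of the same 2 libraries. Replicate 2 had the higher score in 330 of the 494 (66.8%), and exceeded that of replicate 1 by a median of 0.064 over all 494. Among the 1895 others it was higher in 1320 (69.7%), by a median of 0.071. As scores belong to their own lists, this is no measure of acetylation. The clusters of this set were narrower in the replicates, with median widths of 2840.5 and 3022.5 bp against 3548 bp in the combined list.

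The replicate edges facing a gap were placed about as closely as the edges facing away from it. In 464 such paired clusters with a close neighbour on a single side, the edges of replicates 1 and 2 lay a median of 159.5 bp apart on the gap side and 167 bp apart on the open side. The gap-side edges were the nearer ones in 239 of the 464 (51.5%). For the other narrow clusters the median distance over both edges was 155 bp.

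The gaps of the runs were rarely bridged by a replicate cluster. The 535 runs contain 626 gaps, and each gap was sorted by what each replicate list shows at its flanking clusters. A gap was joined where a single replicate cluster overlapped both flanks, and split where both flanks were overlapped, but by different clusters. Replicate 1 joined 25 gaps (3.99%) and replicate 2 joined 32 (5.11%), a mean of 4.55 ± 0.791% (SD, n = 2). Over all 989 gaps under 500 bp of the whole combined list, which include these 626, the shares were 4.55% and 5.66%. Most of the whole-list gaps are thus the gaps of the runs, and shares that lie near each other are partly built in. The same holds for the whole-list shares of gaps given below.

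Most gaps with replicate clusters on both flanks were kept as gaps, as over the whole list. Replicate 1 split 312 gaps (49.8%) and replicate 2 split 326 (52.1%), a mean of 51.0 ± 1.58% (SD, n = 2), against 53.6% and 52.3% over the whole list. Among gaps with both flanks found, 92.6% were split in replicate 1 and 91.1% in replicate 2. Over the whole list, which includes them, these were 92.2% and 90.2%. A gap that is split in a replicate overlaps the gap of that replicate by construction. At 225 gaps (35.9%) replicate 1 had a cluster on 1 flank only and at 64 on neither, and in replicate 2 these were 215 (34.3%) and 53. Whole-list shares of gaps with 1 flank or neither flank found were not computed, and these counts are not read as a trait of the runs.

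The replicates mostly showed the same state at a gap. Both split 246 gaps (39.3%, against 41.5% over the whole list), which is 78.8% of the gaps split in replicate 1 and 75.5% of those split in replicate 2. Both had a cluster on a single flank, not necessarily the same one, at 138 gaps and on neither flank at 31. No gap was joined in both. Of the 57 gaps joined in either replicate (9.11%), the other replicate split 15 of the 25 joined by replicate 1 and 17 of the 32 joined by replicate 2. The states were the same in 415 of 626 gaps (66.3%). Whole-list shares of gaps with the same state, or joined in either replicate, were not computed. These counts are therefore not read as a trait of the runs.

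**Figure D3:**
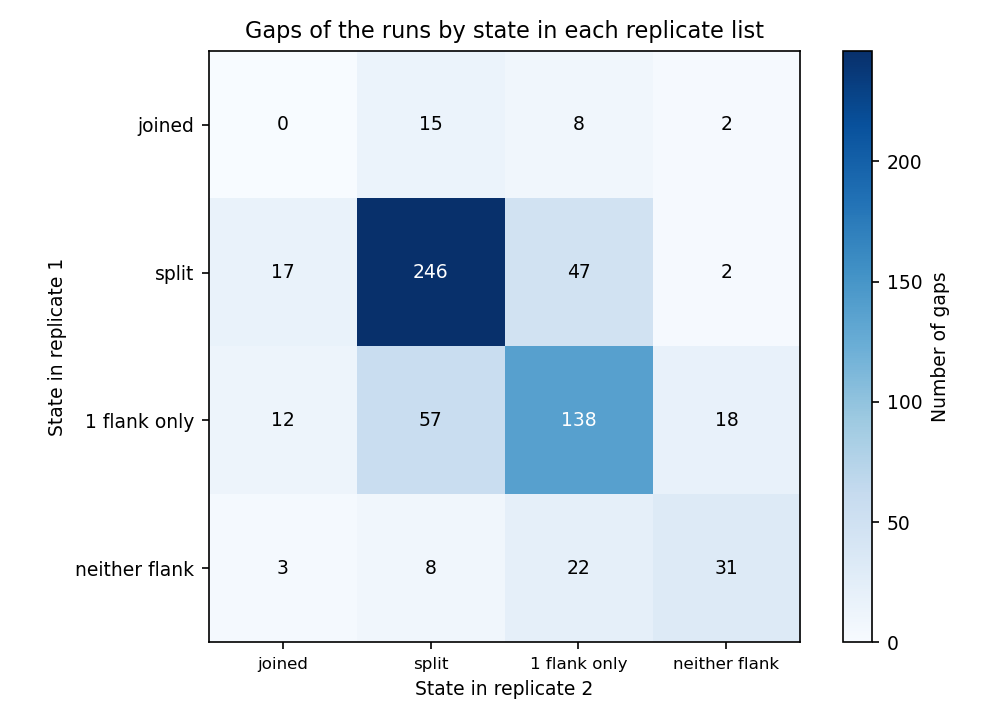
The 626 gaps of the runs by their state in replicate 1 (rows) and replicate 2 (columns), with the number of gaps printed in each cell and shown by shade. The largest cell holds the 246 gaps split in both replicates, and the cell for gaps joined in both holds 0.

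Joined gaps were short, and many joins rested on a small overlap. The median gap was 42 bp among those joined by replicate 1 and also by replicate 2, against 228 and 233 bp among those they split. Of the 57 joined in either, 47 were under 100 bp. The share joined was 14.5 ± 2.18% for gaps under 100 bp and 1.57% in each replicate for gaps from 100 to under 200 bp (SD, n = 2). From 300 to under 400 bp neither replicate joined any of 113 gaps. In 12 of 25 joins of replicate 1 and 15 of 32 of replicate 2, the bridging cluster overlapped 1 of its flanks by less than 100 bp. Requiring 50% of each flank to be overlapped left a joined share of 0.479% in replicate 1 and 1.76% in replicate 2.

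**Figure D4:**
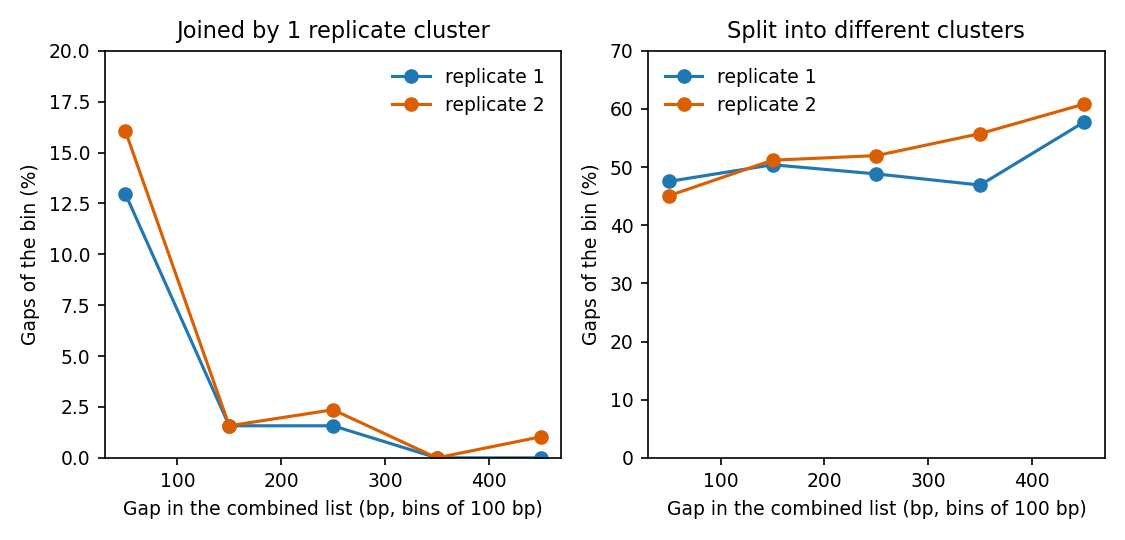
Share of gaps joined by a single replicate cluster (left) and split into different clusters (right), by gap width in the combined list in bins of 100 bp, for each replicate. The joined share is 13.0% and 16.0% in the first bin and at most 2.36% in any later bin.

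The widest gap joined by a replicate, at 482 bp, lay on 2L from 18706260 to 18706742. It was joined by replicate 2 and split in replicate 1, and its flanks had scores of 0.254 and 0.648. At the other extreme, a gap of only 2 bp on 2L from 2215092 to 2215094 was split in both replicates, with gaps of 169 bp (replicate 1) and 48 bp (replicate 2). Another gap of 2 bp, on 2R from 14455348 to 14455350, was also split in both. There the replicate gaps were far wider, at 2210 bp (replicate 1) and 1236 bp (replicate 2). The third of the narrowest, also of 2 bp, lay on 3R from 17991210 to 17991212 and measured 1541 bp in replicate 1 and 1801 bp in replicate 2.

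This widening held across the split gaps. At the 246 gaps split in both replicates, the median gap was 236 bp in the combined list, 679 bp in replicate 1 and 693.5 bp in replicate 2. Both replicate gaps were wider than the combined gap in 228 of 246. All 3 lists had a gap under 500 bp in 24 (9.76%). The limit of 500 bp was applied to the combined list, which favours gaps that are narrow there. Chosen the other way, the direction was the same. At the 102 gaps under 500 bp of replicate 1 that the combined list also splits, the median was 318 bp in replicate 1 and 166 bp in the combined list. At the 119 such gaps of replicate 2 it was 325 against 222 bp. The midpoints of the 2 replicate gaps lay a median of 165.5 bp apart, with quartiles of 74.25 and 401.875 bp. A shift of cluster edges between lists was not limited to the gap side. In the 464 paired clusters above, combined and replicate 1 edges lay a median of 158 bp apart on the gap side and 149 bp on the open side. For replicate 2 these were 127 and 109.5 bp. The cause of the widening was not tested.

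The reverse comparison gave a different picture, since close gaps of a replicate were mostly joined in the combined list. The runs that the same rule finds in replicate 1 hold 396 gaps, of which the combined list joined 293 (74.0%, against 73.1% over all gaps under 500 bp of that list). Those of replicate 2 hold 406, of which it joined 283 (69.7%, against 69.9%). The mean was 71.8 ± 3.03% (SD, n = 2). Replicate 2 joined 211 of the replicate 1 gaps (53.3%, against 51.1%) and replicate 1 joined 176 of the replicate 2 gaps (43.3%, against 42.0%). Closely spaced clusters of a single replicate list were thus often 1 cluster in the other lists, whereas the close gaps of the combined list were seldom joined in either replicate.

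Where a replicate lacked a flank, it lacked the smaller cluster. In replicate 1, the flank without a replicate cluster was the narrower in 208 of 225 gaps (92.4%) and the lower in score in 210 (93.3%). In replicate 2 these were 203 (94.4%) and 201 (93.5%) of 215. The missing flanks had median widths of 1520 and 1482 bp, against 4380 and 4386 bp for the flanks found. Of the missing flanks, 81 in replicate 1 and 85 in replicate 2 did not reach 1300 bp, below which the replicate lists have no cluster. The same shares over the whole list were not computed, so these are not read as a trait of the runs.

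Gaps beside a wide cluster lacked a flank less often than gaps between narrow clusters, and their share split over all gaps was higher, in both replicates. Of the 115 gaps with a wide flank, 84 (73.0%) were split in replicate 1 and 83 (72.2%) in replicate 2. Of the 511 gaps between narrow clusters, 228 (44.6%) and 243 (47.6%) were split. The wide flank is overlapped in both replicates at each of these gaps, so that its gaps can lack at most 1 flank. This by itself raises the share split over all gaps. Joins beside wide clusters numbered 7 (6.09%) in replicate 1 and 3 (2.61%) in replicate 2, against 18 (3.52%) and 29 (5.68%) between narrow clusters, so the replicates differed in direction. Relative to joins, splits were slightly less frequent beside wide clusters in replicate 1 and more frequent in replicate 2.

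Some closely spaced clusters were overlapped by more than 1 cluster of a replicate. In replicate 1 these were 64 of the 724 it overlapped (8.84%), in replicate 2 they were 66 of 754 (8.75%), and 21 were shared. An overlap of 1 bp was enough, so a replicate cluster reaching in across a close gap also counted, as in the sixth run below. The other narrow clusters have no close gap, and how many of the 64 and 66 were of this kind was not counted. The shares over the whole combined list were 12.1% and 10.6%. They were 6.05% and 5.28% for the other narrow clusters and 45.9% and 39.3% for the wide clusters inside the arms. Counted by run, replicate 1 had the same number of clusters as the combined list in 241 of 535 runs (45.0%), fewer in 229 and more in 65. Replicate 2 had the same number in 240 (44.9%), fewer in 228 and more in 67. Both had the same number in 157 runs (29.3%). Counts by run over the whole combined list were not computed, and the counts here are not read as a trait of these runs. Of the 535 runs, 21 held no cluster of either replicate.

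The run with the most clusters was among these 21. It lay on 3R from 19837926 to 19845092, the first in the maps of runs, with 5 clusters of 1000 to 1702 bp over 7.17 kb. Their scores were 0.377, 0.281, 0.293, 0.406 and 0.354 along the arm, all below the median of 0.450 of the closely spaced clusters. Neither replicate list had a cluster there.

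The second run in the maps, on 3R from 9796474 to 9862508, was instead present nearly cluster by cluster in the replicates. Over 66.0 kb it held clusters of 9122, 42826, 11314 and 2228 bp with scores of 1.47, 1.66, 1.19 and 0.298. Replicate 1 had clusters of 9036, 42538 and 11264 bp and none at the last, and replicate 2 had clusters of 8212, 42478, 11084 and 1796 bp. The first gap measured 60 bp in the combined list, 245 bp in replicate 1 and 182 bp in replicate 2, and the second measured 182, 464 and 424 bp. Both gaps were therefore present in every list, within a domain of strong scores.

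In the third run, on 2R from 11769484 to 11811676, clusters of 3096, 16952 and 20418 bp were followed by a cluster of 1030 bp that neither replicate had. Replicate 2 had 3 clusters in the places of the first 3. Replicate 1 divided the cluster of 20418 bp into 3960 and 16039 bp, so that its number of 4 matched that of the combined list with other boundaries. A matching number of clusters is thus not a matching set of boundaries.

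The fourth run lay on 3L from 11519022 to 11556680. Between wide clusters of 12570 and 19026 bp it held narrow clusters of 2960 and 2642 bp with scores of 0.513 and 0.330. Both replicates had a cluster at the first of these narrow ones, and neither had a cluster at the second. Both also divided the cluster of 12570 bp, into 8708 and 1733 bp in replicate 1 and into 10378 and 1934 bp in replicate 2.

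In the fifth run, on 2R from 2877512 to 2905320, a gap of 6 bp separated clusters of 10728 and 7000 bp. Replicate 1 counted as joining it through a cluster that starts at 2888214, only just before the combined end at 2888240, and replicate 2 had a gap of 1202 bp there. The sixth, on 2L from 20985988 to 21011224, gave a similar case at a gap of 84 bp. A replicate 1 cluster ended at 20997989, just past the combined start at 20997984, and replicate 2 had a gap of 797 bp. In both runs a narrow cluster, of 1156 bp with a score of 0.395 in the fifth and 1146 bp with a score of 0.325 in the sixth, had no replicate cluster.

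The seventh run, on 2R from 1999980 to 2023404, began at the 2 Mb limit with a cluster of 1052 bp that neither replicate had. The cluster of 14072 bp beside it had a score of 2.11, the highest in the 8 runs, and replicate 2 divided it into 10525 and 3225 bp. The eighth, on 3R from 5312328 to 5331530, held 4 closely spaced clusters and no wide cluster. There replicate 2 counted as joining the first pair, of 1918 and 3218 bp, through a cluster of 3359 bp. That cluster starts at 5314087, not far before the first combined cluster ends at 5314246. Replicate 1 had no cluster at the first, and both replicates divided the third, of 4854 bp.

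**Figure D5:**
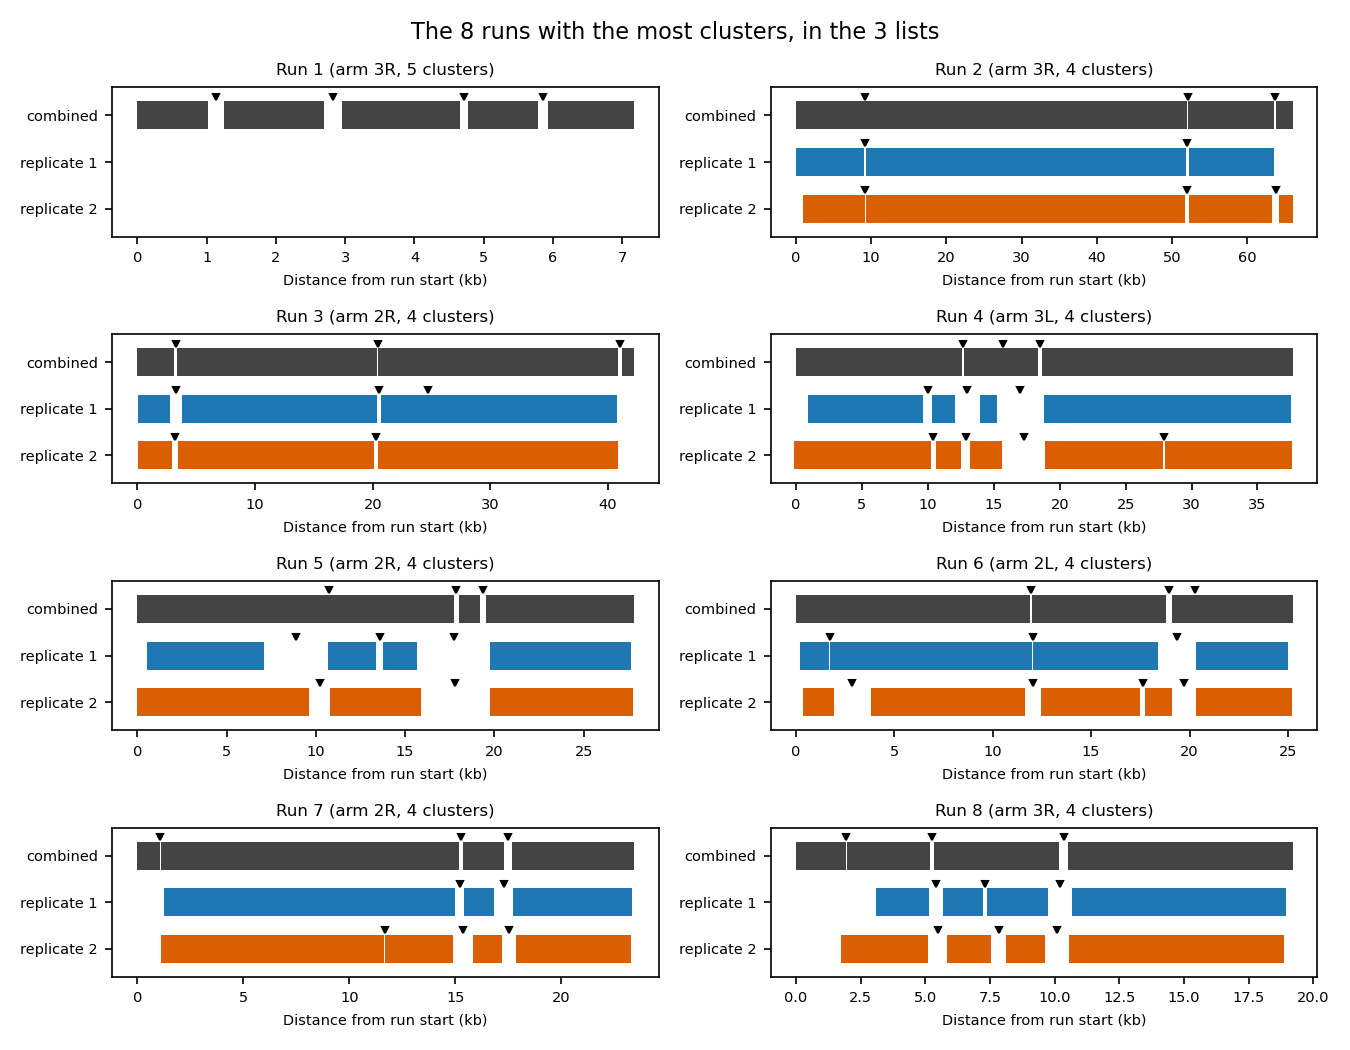
Maps of the 8 runs with the most clusters, with distance from the run's start in kb on the horizontal axis and a row for each list. Bars are clusters and triangles mark the gaps between them, some of which are too narrow to see; the first run, of 5 clusters, has no bar in either replicate row.

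The longest runs were wide clusters with a narrow cluster at the edge. The longest, on 3L from 11356662 to 11427678, spanned 71.0 kb and consisted of a cluster of 67620 bp with a score of 1.57 and a narrow cluster of 3330 bp with a score of 0.446. Replicate 1 kept the narrow cluster apart at 3127 bp. In replicate 2 a cluster of 35896 bp ended at 11424402, past the narrow cluster's start at 11424348, and so counted as joining. Replicate 2 also had a separate cluster of 1884 bp within the narrow one.

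On 3R from 14805690 to 14851884, a cluster of 45142 bp was followed by a narrow cluster of 1030 bp with a score of 0.347, which neither replicate had. On 3L from 18997762 to 19043920, a narrow cluster of 3874 bp with a score of 0.370 preceded a cluster of 42238 bp. Replicate 1 divided the narrow one into 2124 and 1388 bp, and replicate 2 had none there. On 2L from 8263246 to 8303672, the narrow cluster of 2032 bp beside a cluster of 38328 bp was kept apart in both replicates, at 1774 and 1912 bp. The narrow clusters at these edges thus ranged from absent in both replicates to separate in both.

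Among the 494 closely spaced clusters paired with a single cluster in each replicate, the 6 with the highest mean replicate scores were 6018 to 9844 bp wide. All were above the upper quartile of 4522 bp of the closely spaced clusters, and the nearest neighbour of 5 of them had a score of 0.579 or less. Closely spaced clusters outside this paired set were not ranked. The highest lay on 3R from 7581826 to 7590986, with a width of 9160 bp and replicate scores of 1.90 and 2.02 (mean 1.96 ± 0.0887, SD, n = 2). Its neighbour, 90 bp away, measured 1056 bp and had a score of 0.273. The next lay on 2R from 2548408 to 2558180 (9772 bp), with scores of 1.91 and 1.87 (mean 1.89 ± 0.0261), and its neighbour at 152 bp had a score of 0.473. The highest-scoring nearest neighbour among these 6 was on 2R, beside the cluster from 9847252 to 9857096, which scored 1.70 and 1.79 in the replicates (mean 1.74 ± 0.0659). That neighbour, 350 bp away, measured 8674 bp and had a score of 1.29.

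The others of these 6 lay on 2R from 2897068 to 2905320 (the last cluster of the fifth run above, mean 1.74 ± 0.170), on 3L from 22257620 to 22263638 (mean 1.73 ± 0.218) and on 3R from 16397794 to 16403994 (mean 1.69 ± 0.0378; SD, n = 2). Their nearest neighbours had scores of 0.395, 0.326 and 0.579. The cluster on 3L also had a close neighbour on its other side, 484 bp away, of 7678 bp with a score of 0.607. The order among the last 4 of the 6 is not set, since their means, from 1.69 to 1.74, differed by less than the SD of 0.170 or 0.218 within some of them.

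The arms held closely spaced clusters at similar density. There were 256 on 2L, 228 on 2R, 278 on 3L and 291 on 3R, or 13.5, 13.3, 13.5 and 12.2 per Mb of the inner arm. They made up 24.9, 22.4, 24.4 and 23.3% of the clusters under 10000 bp there. The median score was highest on 3L, at 0.495, and lowest on 2L, at 0.421, and the share overlapped by both replicates was also highest on 3L, at 65.1%, and lowest on 2L, at 58.2%. The median width was also largest on 3L, at 3029 bp, and was 2559 bp on 2L. Scores and shares of the other clusters were not computed by arm. All these are values of 1 combined list, and the differences between arms were not tested. No gene is named at any cluster, since positions are on FlyBase release 5 and no annotation of that release was used here.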

How the data were processed

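The submitters' processing notes name Bowtie 0.12.7 as a tool. For the region caller, its threshold and the joining of replicates: not given in the sources used here. Regions were called per library and once for the replicate set, and positions are on FlyBase release 5, per the file headers. The score of each region is the authors' deposited value. Scores rank and describe regions within a list, and replicate scores are also set side by side and averaged for paired clusters, although their scale is not stated. Width is end minus start and a gap is the next start minus the previous end, as deposited. The single depleted region was left out. The input libraries have no list analysed here, and depth is unknown.

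Overlap meant at least 1 bp. Replicate shares are the mean and SD of 2. The members and lists were chosen with earlier results of these data known. Named are the 8 runs with the most clusters, the 6 longest, and the 6 members with the highest mean replicate score among those paired with a single cluster in each replicate. Also named are the 3 gaps that both replicates join and that are widest (none existed), and the 3 narrowest that both split. The clusters nearest the limits and the fullest run of each arm are named as well. The gap of 482 bp that 1 replicate joins was chosen after its value was seen. Gap sorting was tested on simulated data. Alternatives changed the limits of the rule, the overlap, the score and the widths. Python 3.11.15, NumPy 2.4.6, pandas 2.3.3, SciPy 1.17.1 and Matplotlib 3.10.9 were used.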

Additional observations from a re-analysis of the deposited data

How the results depend on the processing

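Of 59 alternative values, 32 stayed within 1 SD of the replicates or, for numbers, within 1.5 times, and 27 moved further. The 32 include the values with 1 replicate left out, which with n = 2 always lie within 1 SD of the mean. No paired analysis was possible because the groups that share replicate numbers are ChIP and input, the input libraries have no lists here, and no result comes from a test. A gap limit of 250 bp gave 611 clusters in 321 runs and 1000 bp gave 1661 clusters. Keeping only clusters at or above the median score of their list left 213 in 126 runs. The joined share was 7.81% with a limit of 250 bp, 2.95% with 1000 bp and 5.84% at higher scores. It was 2.40% with an overlap of 100 bp and 1.12% with 50% of each flank. Each replicate alone gave 3.99 to 5.11%. The split share was 47.9% with a limit of 250 bp, 57.3% at higher scores, 52.6% with an overlap of 100 bp, 46.7% with 50% and 63.0% with clusters of at least 1300 bp. Each replicate alone gave 49.8 to 52.1%. The share of closely spaced clusters overlapped was 74.4% at higher scores, 65.1% with an overlap of 50% and 78.4% with at least 1300 bp, and 68.8 to 71.6% by replicate. Its difference from the other narrow clusters changed sign at higher scores, to 2.20 points, and was -3.46 to -1.19 by replicate. The difference in median score was -0.0267 with a limit of 250 bp against -0.00425. The difference in median width, 54 bp, was 4 bp with 250 bp, 30 bp with 1000 bp, 208 bp without a width limit, 70 and 106 bp with arm ends of 1 and 4 Mb, 210 bp at higher scores and 196 bp with at least 1300 bp. The cause of these shifts was not tested.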

Other observations

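Closely spaced clusters were spread along the inner arms, and their number per bin of 1 Mb rose with the number of all clusters there. Over 79 full bins the median was 12, the quartiles were 9 and 17, and the range was from 2 to 25. The Spearman rho with the number of all clusters was 0.595, a description over bins in which the closely spaced clusters are part of the total. The fullest bins, picked after their values were seen, were 3L from 8000001 to 9000000 and 3R from 5000001 to 6000000, with 25 each, of 87 and 89 clusters.

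The share of narrow clusters found in a replicate did not follow the distance to the nearest neighbour in 1 direction. It was 75.4% in each replicate where the nearest gap was under 100 bp and 65.9 ± 1.34% from 100 to under 200 bp. It was 75.0 ± 2.74% from 2000 to under 5000 bp and 67.1 ± 4.65% at 10000 bp or more (SD, n = 2). The median width was 2174 bp in this last class and 2765 bp from 2000 to under 5000 bp.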
